A study of Mus musculus with 15 samples.

Results

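The 7 ligands of the B7 family followed here were Vtcn1, Cd274, Pdcd1lg2, Cd80, Cd86, Icosl and Cd276. They were chosen by name, as 7 of the 21788 gene symbols that are listed once in any of 15 mRNA sequencing libraries of mouse tumour-infiltrating CD8+ T cells (TILs). The deposited lists of genes differ, and the libraries fall into 4 tables with the same genes. All 7 genes are listed in the bulk pair and in the table that joins the KO libraries with the wild-type libraries numbered 2. The table of wild-type libraries numbered 1 lists 5 of them, without Vtcn1 and Cd276. The antibody table lists 6, without Vtcn1. Each gene that a table lists is above the table's lowest value in at least 1 of its libraries.

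All cells came from E.G7 tumours, an ovalbumin-producing line derived from the EL4 lymphoma. Female mice aged 6 to 8 weeks received 1000000 tumour cells under the skin, and TILs were sorted on day 21. The age given for the mice is 9 to 11 weeks and the strain is C57BL/6, although the strain field of 7 libraries and the genotype field of 2 KO libraries count upward from one library to the next, so that groups were taken from the titles. The bulk pair holds ovalbumin-specific CD8+ TILs of B7S1 KO mice and of WT mice, with 1 library for 6 mice in each group. The labels give neither the allele that was deleted nor whether the mice were pooled. The sorted libraries hold PD-1+ CD8+ TILs in 3 populations: B7S1R_SP (B7S1 receptor-positive, Tim-3-negative), TIM-3_SP (Tim-3-positive, B7S1 receptor-negative) and DN (negative for both). Each population has 1 library from B7S1 KO mice and 2 from WT mice, numbered 1 and 2. The antibody libraries are named combo, anti_PD1, anti_B7S1 and Control, with 1 library each. No antibody, dose or schedule is given for them, their genotype is given as wild type, and their sorted population is not stated.

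B7 ligands are surface proteins of antigen-presenting cells, tumour cells and many tissues that tune T cell activation through receptors on the T cell. CD80 and CD86 give the activating second signal through CD28 and are also bound by the inhibitory receptor CTLA-4. PD-L1, made from Cd274, and PD-L2, made from Pdcd1lg2, inhibit through PD-1. ICOS ligand, made from Icosl, engages ICOS, whereas B7S1, made from Vtcn1 and also called B7-H4, and B7-H3, made from Cd276, are counted among the inhibitory members. Activated T cells can themselves transcribe Cd274, Cd80 and Cd86.

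Cd274 and Pdcd1lg2 are neighbours. In GENCODE M21 on mm10, Cd274 (chr19:29367455-29388095) and Pdcd1lg2 (chr19:29410919-29471161) lie on the plus strand with 22823 bases between them. Vtcn1 (chr3:100825459-100896922) is on the plus strand with a single annotated transcript of 6 exons and 2622 bases. Cd86 (chr16:36603869-36666081, minus strand) and Cd80 (chr16:38455561-38496335, plus strand) share a chromosome at a distance of 1789479 bases. Icosl (chr10:78069302-78083913) is on the plus strand and Cd276 (chr9:58524298-58555437) on the minus strand. Values are per gene, so no exon or UTR can be singled out.

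The 250 bases before the RefSeq start (GRCm38.p6) of 4 of the genes are given on the gene's own strand, with CG dinucleotides in capitals. Vtcn1 is shown as the gene the KO mice are named for, Cd274 and Pdcd1lg2 as the neighbours whose levels differed in opposite directions between antibody libraries, and Cd276 as the gene that stayed near 0 throughout.
Vtcn1 (chr3:100825209-100825458): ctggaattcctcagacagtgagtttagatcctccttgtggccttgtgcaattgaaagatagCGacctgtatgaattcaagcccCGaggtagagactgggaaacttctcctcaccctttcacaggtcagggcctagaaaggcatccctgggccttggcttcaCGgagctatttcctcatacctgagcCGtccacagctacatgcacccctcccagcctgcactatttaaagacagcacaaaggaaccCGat
Cd274 (chr19:29367188-29367437): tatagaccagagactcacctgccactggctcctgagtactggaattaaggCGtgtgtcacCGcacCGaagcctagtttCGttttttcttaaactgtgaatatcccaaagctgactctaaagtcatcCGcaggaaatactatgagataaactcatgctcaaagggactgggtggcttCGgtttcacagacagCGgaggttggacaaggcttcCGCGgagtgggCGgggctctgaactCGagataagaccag
Pdcd1lg2 (chr19:29410669-29410918): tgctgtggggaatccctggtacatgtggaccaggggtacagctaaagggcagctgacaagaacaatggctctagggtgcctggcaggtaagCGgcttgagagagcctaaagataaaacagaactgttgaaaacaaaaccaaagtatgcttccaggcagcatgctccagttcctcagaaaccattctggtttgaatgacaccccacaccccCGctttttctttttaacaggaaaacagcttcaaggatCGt
Cd276 (chr9:58555034-58555283): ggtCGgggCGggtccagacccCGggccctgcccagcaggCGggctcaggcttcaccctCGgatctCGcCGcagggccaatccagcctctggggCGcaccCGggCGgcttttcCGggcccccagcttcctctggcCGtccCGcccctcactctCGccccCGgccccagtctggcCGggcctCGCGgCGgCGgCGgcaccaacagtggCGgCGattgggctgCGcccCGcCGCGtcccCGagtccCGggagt
The Vtcn1 window holds 5 CG dinucleotides, and 55.6% of 32851 promoter windows of the same length hold at least as many. Cd274 has 11, matched or passed by 35.6% of windows, and Pdcd1lg2 has 3, matched or passed by 71.0%. The Cd276 window is the richest of the 6 ligand windows, with 29 CG and 77.6% G or C, and 6.78% of windows hold as many.

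The 7 T cell markers (such as Cd3e, Cd8a and Lck) were listed in every library and above the lowest value in each, with sums of 10940 RPKM in the KO and 9270 RPKM in the WT bulk library, 2010 to 8612 FPKM in the sorted libraries and 3338 to 5175 FPKM in the antibody libraries. RPKM and FPKM are reads or fragments scaled to transcript length and library size. From the steps between low RPKM values, the bulk KO library was estimated at 12100000 reads and the WT library at 11100000 reads. At these totals 57.6% of 926 low single-transcript genes in the KO library and 58.4% of 1168 in the WT library fell within 0.03 of a whole read, against a median of 3.31% and 3.41% at other totals. The depth of the other libraries is unknown. Nothing says that libraries of 1 group came from separate mice, so p-values measure only the spread between these libraries.

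**Figure D1:**
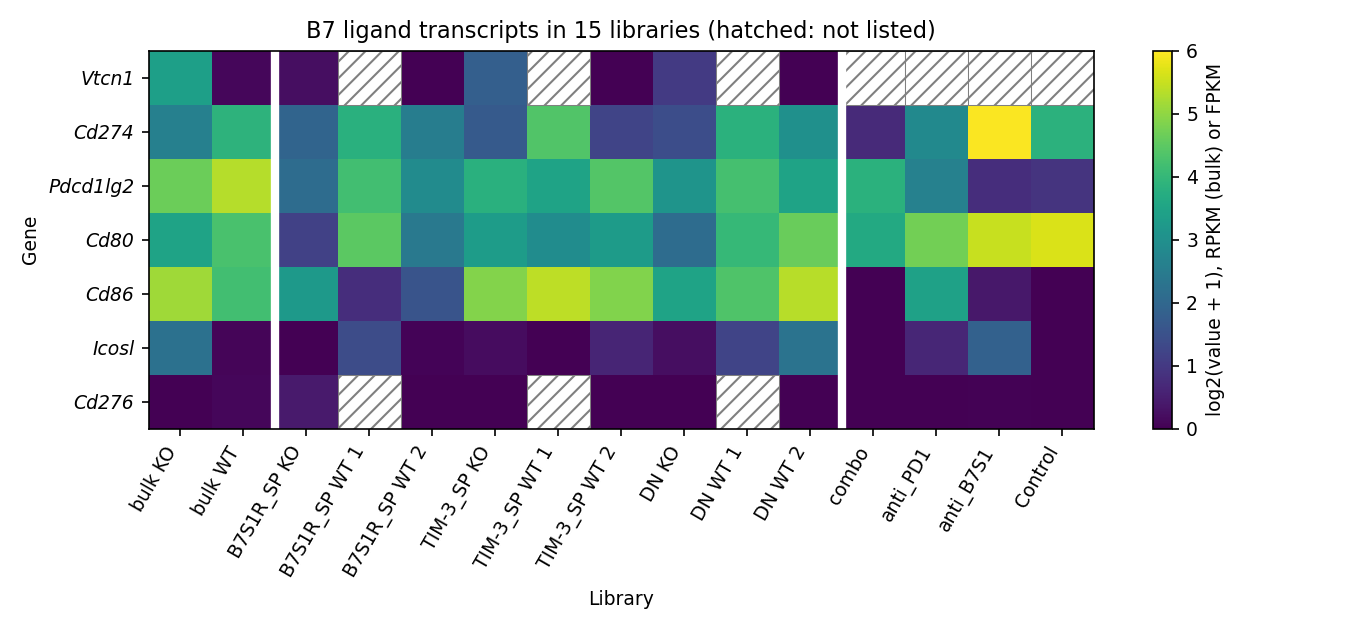
Level of the 7 ligand genes (rows) in the 15 libraries (columns) as log2(value + 1), in RPKM for the bulk pair and FPKM elsewhere; hatched cells are genes that a table does not list. Cd276 stays near 0 in every library that lists it, and Cd86 is low in the wild-type B7S1R_SP columns and in 3 of the 4 antibody libraries.

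The ligands fell into a detected and a scarce set. In the 9 sorted libraries Pdcd1lg2 had 3.35 to 19.95 FPKM (median 10.24), Cd80 1.24 to 23.69 FPKM (median 8.76), Cd274 1.36 to 19.69 FPKM (median 4.85) and Cd86 0.73 to 41.08 FPKM (median 19.38). The ranges overlap throughout, so the order of these 4 genes is not fixed by their levels. Icosl reached 1 FPKM in 3 of the 9 libraries and at most 3.85 FPKM. Vtcn1 reached 1 FPKM in 2 of the 6 sorted libraries that list it, and Cd276 in 0 of 6, with 0.35 FPKM as its highest value.

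Vtcn1, the gene for B7S1, had higher values in libraries labelled KO than in those labelled WT. In the bulk pair it had 9.46 RPKM in the library labelled KO and 0.0687 RPKM in the library labelled WT. At the estimated depths these are about 300 reads in the KO and 2 reads in the WT library, a 137.7-fold ratio whose exact 95% interval of 37.8 to 1140 covers counting error only. In libraries of many cells, as all of these are, fewer cells with a transcript and fewer transcripts per cell cannot be told apart. In the sorted libraries labelled KO B7S1R_SP had 0.16 FPKM, TIM-3_SP 2.5 FPKM and DN 1.02 FPKM, and Vtcn1 was listed at 0 in each of the 3 WT libraries numbered 2. The KO and WT libraries did not overlap. The exact two-sided permutation test over 3 KO and 3 WT libraries gave p = 0.1, the smallest it can give. That test does not pair libraries by population, although each group holds a library of each population. No gene of this table is at 0 in all its libraries, so Vtcn1 could be listed here only through the KO libraries. The lack of overlap and the p-value therefore carry no weight of their own. Of the 17605 genes in this table, 4.12% were higher in every KO than in every WT library, and 0.358% were above 0 in all 3 KO and at 0 in all 3 WT libraries.

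This direction is the reverse of the label for a targeted gene, but a value per gene does not show whether reads lie in the deleted part of the allele, so it neither checks nor contradicts the genotype. Vtcn1 was below the mean of 1 FPKM needed to enter the model across genes. Without that filter limma gave a log2 fold change of 1.01 ± 0.38 (SE) with a Benjamini-Hochberg adjusted p = 0.524. In the bulk pair 30 of 17205 genes (0.174%) were higher in the KO library by at least the Vtcn1 ratio at 5 RPKM or more, and 29 (0.169%) were lower by as much. B7S1 is known from epithelia, and 5 epithelial markers summed to 3.08 RPKM in the bulk KO library, with Krt18 at the lowest value, against 0.691 RPKM in the WT library, with Krt19 at the lowest value. In the sorted libraries the 3 listed of 5 epithelial markers summed to 0 to 0.13 FPKM in KO, with Epcam and Krt19 at 0 in all 3, and to 0.06 to 4.65 FPKM in WT numbered 2, with Cdh1 at 0 in all 3. The part of epithelial cells in the Vtcn1 values was not tested.

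Among the wild-type populations, Cd86 had the widest difference of the 5 ligands fitted. B7S1R_SP had 0.73 and 1.94 FPKM, TIM-3_SP 41.1 and 28.2 FPKM, and DN 19.4 and 39.9 FPKM. Both B7S1R_SP libraries were below all 4 others, whereas TIM-3_SP and DN overlapped. The means were 1.33 ± 0.856, 34.7 ± 9.09 and 29.6 ± 14.5 FPKM in that order (SD, n = 2 each). Fold changes come from limma on log2(FPKM + 1) over the 6 wild-type libraries and the 10411 genes whose mean reached 1 FPKM. For B7S1R_SP over TIM-3_SP the log2 fold change of Cd86 was -3.96 ± 0.80 (SE), with an unadjusted p = 0.00116 and a limma adjusted p = 0.721. For B7S1R_SP over DN it was -3.68 ± 0.80, with an unadjusted p = 0.00181 and a limma adjusted p = 1, so neither passed the threshold of 0.05 over all genes. In the fit of KO and wild type numbered 2 the log2 fold changes were -2.49 and -2.02. With the library number as a block, the limma adjusted p of Cd86 in the wild-type libraries was 0.179 over TIM-3_SP and 0.748 over DN.

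No ligand was called between populations, and 0% of the genes fitted were called in any of the 3 comparisons without a replicate block, all by limma. At an unadjusted p under 0.05 there were 358 genes for TIM-3_SP over DN, 493 for B7S1R_SP over TIM-3_SP and 280 for B7S1R_SP over DN. With the library number as a block the counts were 2, 7 and 0, again with no ligand. Of the 5 ligands fitted, Cd86 alone was lower without overlap in B7S1R_SP than in TIM-3_SP, where 9.45% of genes were lower and 15.9% higher in this way. It was also the only 1 of 5 in B7S1R_SP against DN, beside 17.2% of genes lower and 12.2% higher. In TIM-3_SP against DN, 2 of 5 were lower without overlap, Cd80 and Icosl, beside 23.3% of genes lower and 7.99% higher. Icosl passed the limit of the model only through its DN values, so its lack of overlap carries no weight of its own.

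Antigen-presenting cells also carry Cd86, and 4 lists of their markers were summed in the same libraries. The macrophage and monocyte list is led in most libraries by Ly6c2, which activated CD8+ T cells also make. Wild-type B7S1R_SP had sums of 829.4 and 706.6 FPKM, TIM-3_SP of 557.8 and 338.5 FPKM and DN of 1819 and 676.8 FPKM, with 11 of 14 markers listed in libraries numbered 1 and 14 of 14 in those numbered 2. Without Ly6c2 B7S1R_SP had 289.1 and 612.8 FPKM, TIM-3_SP 104.6 and 142.0 FPKM, and DN 218.4 and 132.6 FPKM. No listed marker was at 0 in B7S1R_SP, whereas Adgre1 was at 0 in all 4 other wild-type libraries. The 5 class II markers summed to 2129 and 171.5 FPKM in B7S1R_SP, while TIM-3_SP had 71.88 and 60.06 FPKM and DN 473.6 and 181.7 FPKM. Dendritic cell markers (7 of 9 listed in libraries numbered 1, 9 of 9 in those numbered 2) summed to 38.33 and 2.79 FPKM in B7S1R_SP, 24.85 and 7.43 in TIM-3_SP, and 22.64 and 9.25 in DN, each with 3 to 5 markers at 0. For the B cell list (3 of 6 listed) the sums were 0.39 and 5.78 FPKM in B7S1R_SP, 0.65 and 0 in TIM-3_SP, and 32.77 and 1.38 in DN, with Cd79a or Cd79b at 0 in 5 of the 6 libraries. The part of such cells in the Cd86 values was not tested.

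Cd80, the other ligand of CD28 and CTLA-4, did not follow Cd86. Wild-type B7S1R_SP had 21.5 and 4.34 FPKM, TIM-3_SP 6.54 and 8.76 FPKM, and DN 15.3 and 23.7 FPKM. The 2 B7S1R_SP libraries differed 4.96-fold and spanned all the TIM-3_SP values. For TIM-3_SP over DN its log2 fold change was -1.23 ± 0.91 (SE), limma adjusted p = 1.

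Cd274 and Pdcd1lg2, the ligands of PD-1, varied as much within a population as between populations. For Cd274, B7S1R_SP had 13 and 4.85 FPKM, TIM-3_SP 19.7 and 1.36 FPKM, and DN 13.2 and 7.07 FPKM. Its highest and its lowest wild-type value are both from TIM-3_SP, 14.5-fold apart, and the library numbered 1 is the higher one in every population. For Pdcd1lg2, B7S1R_SP had 17.1 and 6.39 FPKM, TIM-3_SP 10.2 and 19.9 FPKM, and DN 17.9 and 10.1 FPKM. All 3 pairs of values overlap, and the log2 fold changes of Pdcd1lg2 lay between -0.41 and 0.08, each smaller than its SE of 0.85.

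Icosl, which binds ICOS, was at 1.63 and 0.04 FPKM in B7S1R_SP, at 0 and 0.55 FPKM in TIM-3_SP, and at 1.36 and 3.85 FPKM in DN. Its mean of 1.24 FPKM over these libraries is just above the limit for the model and reaches it only through DN. Without the DN library numbered 2 Icosl did not enter the model, so its fold changes against DN are partly set by the filter. For TIM-3_SP over DN the log2 fold change was -1.44 ± 0.86 (SE), limma adjusted p = 1. Cd276 was listed at 0 in the 3 wild-type libraries numbered 2.

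**Figure D2:**
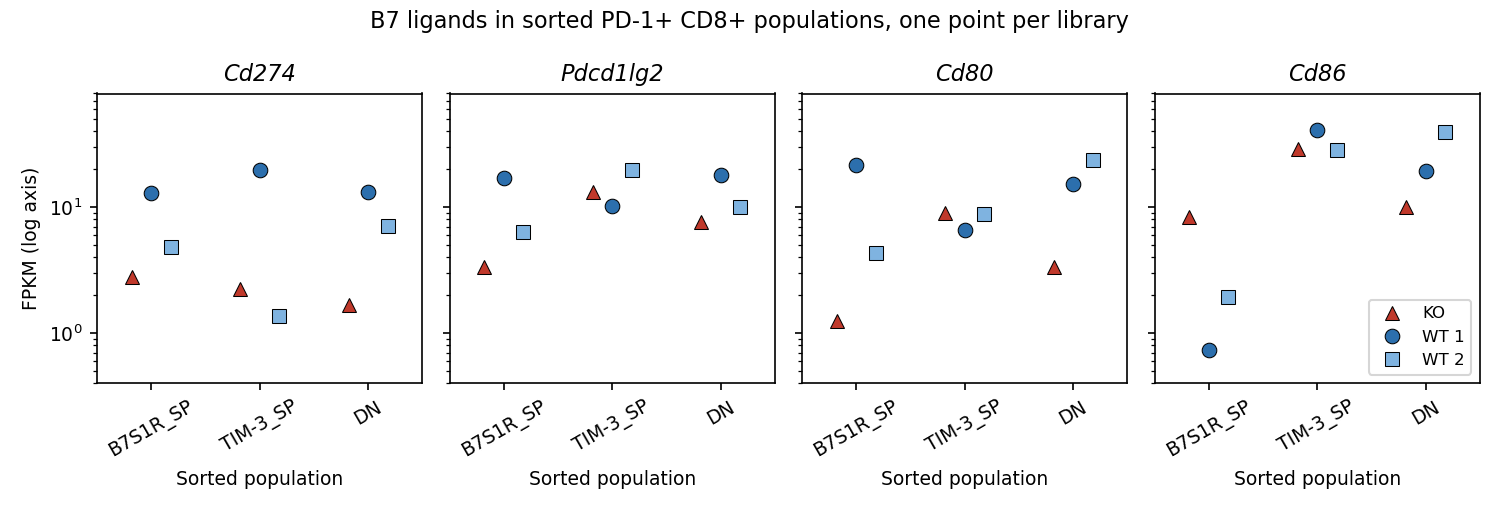
FPKM (log axis) of Cd274, Pdcd1lg2, Cd80 and Cd86 in the B7S1R_SP, TIM-3_SP and DN populations, with 1 point per library: KO as a triangle, WT numbered 1 as a circle and WT numbered 2 as a square. Cd86 is lowest in B7S1R_SP in each of these 3 sets, at 8.35, 0.73 and 1.94 FPKM.

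In the KO libraries Cd86 had 8.35 FPKM (B7S1R_SP), 28.8 FPKM (TIM-3_SP) and 10.1 FPKM (DN), against 1.94, 28.2 and 39.9 FPKM in WT numbered 2 in the same order. It was thus 4.3-fold higher in KO in B7S1R_SP and 3.97-fold lower in DN, and TIM-3_SP was nearly equal. The log2 fold change over the 3 populations was -0.06 ± 0.67 (SE), with a limma adjusted p = 0.973 over 10097 genes, in a model with population as a term, and 0.85 without either DN library. The B7S1R_SP library from KO mice was also the one with the highest macrophage marker sum of the sorted libraries: markers without Ly6c2 summed to 5908 FPKM there, with none of the 13 at 0, against 612.8 FPKM in WT numbered 2. In DN these sums were 262.8 FPKM in KO, with 7 of 14 markers of the full list at 0, among them Csf1r and Itgam, and 132.6 FPKM in WT numbered 2, with 7 of 14 at 0, among them Adgre1 and Tyrobp. In TIM-3_SP they were 186.2 FPKM in KO, with 6 at 0, and 142.0 FPKM in WT numbered 2, with 4 at 0. The 5 class II markers summed to 2615 (B7S1R_SP), 103.7 (TIM-3_SP) and 89.75 FPKM (DN) in KO, against 171.5, 60.06 and 181.7 FPKM in WT numbered 2. Dendritic cell sums were 10.3, 2.16 and 7.53 FPKM in KO, against 2.79, 7.43 and 9.25 FPKM in the same order. B cell sums (3 of 6 markers listed) were 4.35, 6.66 and 12.99 FPKM in KO, against 5.78, 0 and 1.38 FPKM. The part of these cells in the Cd86 values was not tested.

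Cd80 was at 1.24 FPKM (B7S1R_SP), 9.02 FPKM (TIM-3_SP) and 3.35 FPKM (DN) in KO, against 4.34, 8.76 and 23.7 FPKM in WT numbered 2. It was lower in KO in 2 of 3 populations, by 3.5-fold in B7S1R_SP and 7.07-fold in DN, and the KO and WT groups overlapped. The log2 fold change was -1.24 ± 0.54 (SE), with an unadjusted p = 0.0587 and a limma adjusted p = 0.405. The 3 KO libraries had 4.54 ± 4.02 FPKM and the 3 WT libraries 12.3 ± 10.1 FPKM (SD). The exact two-sided permutation test over them, which does not pair libraries by population, gave p = 0.3.

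Cd274 was at 2.81 FPKM (B7S1R_SP), 2.24 FPKM (TIM-3_SP) and 1.66 FPKM (DN) in KO, against 4.85, 1.36 and 7.07 FPKM in WT numbered 2. The 3 KO values lie within the range of the WT values. Its log2 fold change was -0.59 ± 0.49 (SE), limma adjusted p = 0.612. Pdcd1lg2 was at 3.35 FPKM (B7S1R_SP), 13.1 FPKM (TIM-3_SP) and 7.57 FPKM (DN) in KO, against 6.39, 19.9 and 10.1 FPKM in WT numbered 2. It was lower in KO in 3 of 3 populations, as were 23.5% of genes fitted, with 14.1% higher in all 3. Its log2 fold change was -0.57 ± 0.36 (SE), limma adjusted p = 0.526.

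Among all genes of this comparison limma called 4 of 10097 (0.0396%), each lower in KO and none a ligand, and 1255 had an unadjusted p under 0.05. The count was 0 without either library of B7S1R_SP or of DN, 13 without the KO library of TIM-3_SP and 18 without its WT library. None of the 4 fitted ligands separated KO from WT libraries without overlap, beside 5.11% of genes higher and 9.99% lower in KO. Icosl and Cd276 did not enter the model. Icosl had 0, 0.14 and 0.17 FPKM in KO B7S1R_SP, TIM-3_SP and DN, and 0.04, 0.55 and 3.85 FPKM in WT numbered 2 in the same order. It was lower in KO in 3 of 3 populations (exact two-sided permutation p = 0.3, without pairing by population). Of the genes fitted, a set without Icosl, 23.5% were lower in all 3. In B7S1R_SP this rests on 0 against 0.04 FPKM, and in the bulk pair Icosl stood the other way (3.71 RPKM in KO, 0.0656 RPKM in WT). Cd276 had 0.35 FPKM in KO B7S1R_SP and was listed at 0 in the other 5 libraries.

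In the bulk pair, where only ratios can be given, Cd274 and Vtcn1 were the 2 ligands past a 2-fold ratio with at least 5 RPKM in the higher library. Of the 7 ligands 1 was higher and 1 lower in this way, beside 4.31% of 17205 genes higher and 4.98% lower in KO. Cd274 had 5.16 RPKM in the KO library, about 225 reads, and 13.7 RPKM in the WT library, about 550 reads. The KO over WT ratio was 0.377, with a 95% interval of 0.321 to 0.44 from counting error only. Cd86, which carries the activating signal, had 34.3 RPKM in KO and 17.2 RPKM in WT, a ratio of 1.996 that is just short of 2-fold. Cd80 had 10.2 RPKM in KO and 18.5 RPKM in WT, and Pdcd1lg2 24.1 RPKM in KO and 39 RPKM in WT, both less than 2-fold lower in KO. Icosl had 3.71 RPKM in KO and 0.0656 RPKM in WT, a 56.6-fold ratio below the 5 RPKM minimum. Cd276 was at the lowest value of the table, 0.001 RPKM, in KO and had 0.0846 RPKM in WT. Macrophage markers without Ly6c2 summed to 210.4 RPKM in the KO library, with Csf1r at the lowest value, and to 195.7 RPKM in the WT library, with Adgre1 and Mrc1 at the lowest value.

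**Figure D3:**
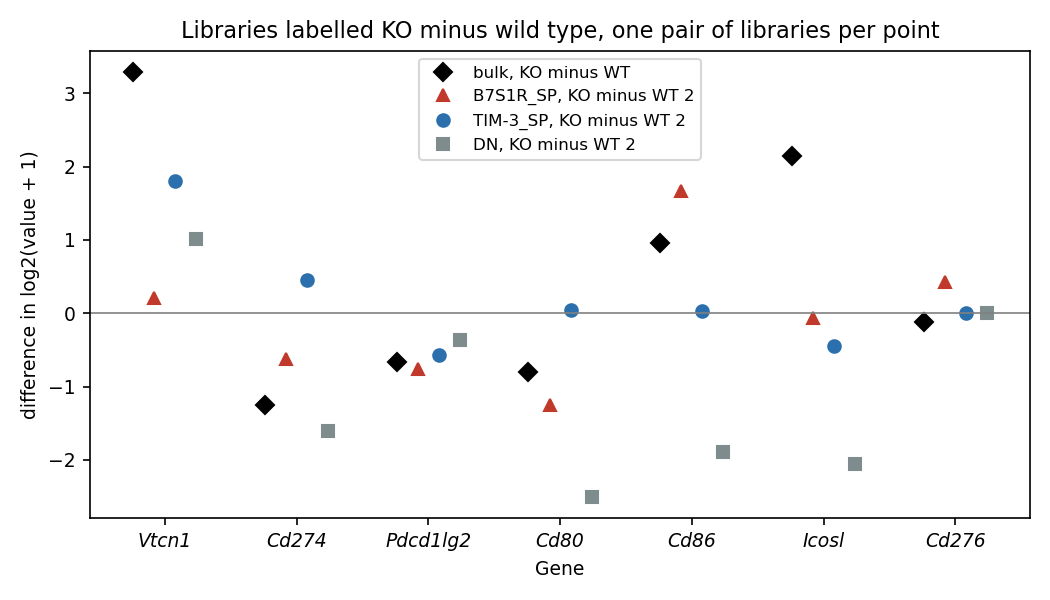
Difference between KO and WT on the log2(value + 1) scale for each ligand gene in the bulk pair (RPKM) and in the 3 sorted populations against WT numbered 2 (FPKM), with 1 point for each pair of libraries and positive values higher in KO. Vtcn1 is at or above 0.21 in all 4 pairs, and Cd86 lies at 1.67 in B7S1R_SP and at -1.89 in DN.

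The antibody libraries showed the widest range of Cd274, with 0.65 FPKM in combo, 6.19 FPKM in anti_PD1, 61.1 FPKM in anti_B7S1 and 13.4 FPKM in Control. There is 1 library for each, so no difference could be set against replicates or given a p-value. The Cd274 level was 4.56-fold higher in anti_B7S1 than in Control and 9.52-fold lower in combo than in anti_PD1, the 2 pairs that differ by the B7S1 antibody. It was 2.17-fold lower in anti_PD1 than in Control and 94.1-fold lower in combo than in anti_B7S1. Pdcd1lg2, the neighbouring gene, had 13.2 FPKM in combo, 5.17 FPKM in anti_PD1, 0.71 FPKM in anti_B7S1 and 0.86 FPKM in Control. The 4 libraries stand in the opposite order for the 2 genes, although anti_B7S1 and Control are close for Pdcd1lg2 (ratio 0.826, anti_B7S1 over Control).

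Cd80 had 11.5 FPKM in combo, 25.3 FPKM in anti_PD1, 43.9 FPKM in anti_B7S1 and 49.2 FPKM in Control. It was the most evenly detected ligand of this table, 4.29-fold lower in combo than in Control, and within 2-fold in either single antibody library. Cd86 had 9.76 FPKM in anti_PD1 and 0.3 FPKM in anti_B7S1 and was listed at 0 in combo and Control. Icosl had 0.57 FPKM in anti_PD1 and 2.66 FPKM in anti_B7S1 and was listed at 0 in combo and Control, and Cd276 was above 0 only in anti_B7S1, with 0.02 FPKM.

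The share of all 14710 genes past 2-fold with at least 5 FPKM in the higher library was large in every pair. In anti_B7S1 against Control 1 of the 6 listed ligands was higher, Cd274, beside 18.5% of genes higher and 14.2% lower. In anti_PD1 against Control 2 were higher, Pdcd1lg2 and Cd86, and 1 was lower, Cd274, beside 23.5% of genes higher and 13% lower. In combo against Control 1 was higher, Pdcd1lg2, and 2 were lower, Cd274 and Cd80, beside 19.9% and 13.9%. These 3 comparisons share the Control library. In combo against anti_PD1 1 was higher, Pdcd1lg2, and 3 were lower, Cd274, Cd80 and Cd86, beside 13.4% higher and 18.3% lower. In combo against anti_B7S1 1 was higher, Pdcd1lg2, and 2 were lower, Cd274 and Cd80, beside 17.3% and 16.1%.

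Marker sums also differed between these libraries. The 8 listed of 14 macrophage and monocyte markers summed to 472.2 FPKM in combo, 81.65 in anti_PD1, 76.52 in anti_B7S1 and 1026 in Control. Without Ly6c2 the sums were 103.2, 42.82, 0.18 and 246.8 FPKM in the same order. The markers at 0 were Csf1r, Cd68, C1qb and Arg1 in combo, Cd14 in anti_PD1, Lyz2, C1qb, Cd14 and Arg1 in anti_B7S1, and Lyz2, Csf1r, C1qb, Cd14 and Arg1 in Control. The 5 listed of 9 dendritic cell markers summed to 8.61 FPKM in combo, 8.06 in anti_PD1, 20.48 in anti_B7S1 and 8.87 in Control, with Itgax at 0 in all but Control, Fscn1 in all but anti_B7S1, and Zbtb46 in Control. The 5 class II markers summed to 80.98 FPKM in combo, 91.88 in anti_PD1, 208.5 in anti_B7S1 and 246.4 in Control. At 0 were Ciita in combo, H2-Aa, H2-Ab1 and Ciita in anti_B7S1, H2-Aa, H2-Ab1 and H2-Eb1 in Control, and none in anti_PD1. The 4 listed of 6 B cell markers summed to 0.04, 13.2, 0 and 0.1 FPKM in the order of the class II sums. Genes at 1 FPKM or more numbered 6913 in combo, 8640 in anti_PD1, 6972 in anti_B7S1 and 5752 in Control. Their part in the ligand values was not tested.

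**Figure D4:**
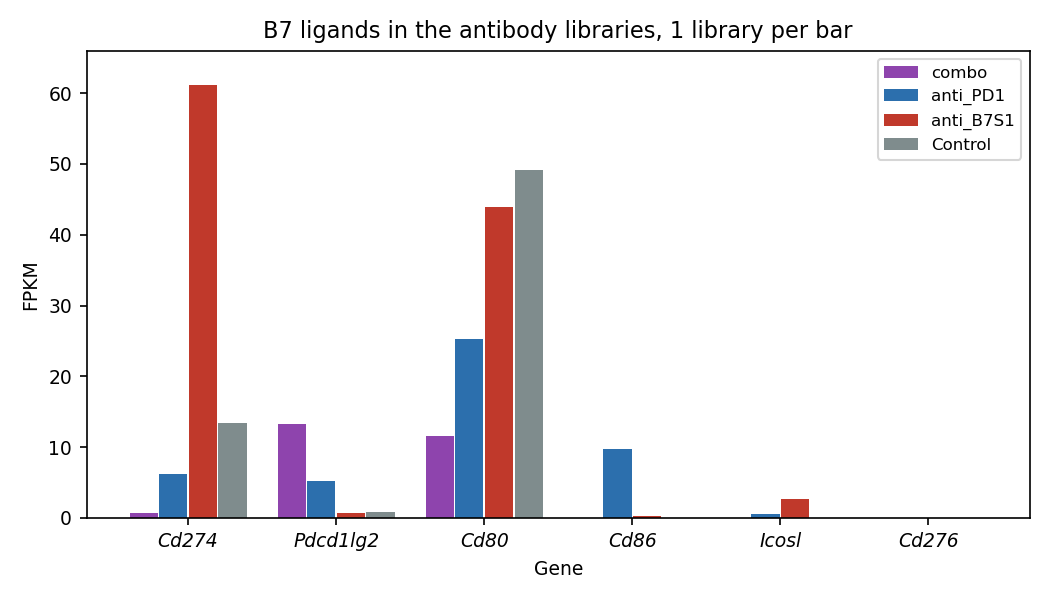
FPKM of the 6 listed ligand genes in the combo, anti_PD1, anti_B7S1 and Control libraries, with 1 library per bar and no error bar. Cd274 is highest in anti_B7S1 at 61.1 FPKM and lowest in combo at 0.65 FPKM, and Pdcd1lg2 is highest in combo at 13.2 FPKM.

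Receptors of the B7 ligands were followed as a list of 6, of which Cd28, Ctla4, Icos and Pdcd1 passed the limit of the model in every comparison, and Rgmb, a receptor of PD-L2, and Treml2 did not. None rose or fell by limma. In the sorted KO libraries 4 of 4 had lower fitted values than in WT, with a median log2 fold change of -1.65 beside -0.16 over all genes, 40.5% of which were positive. The 4 did not fall alike. Cd28 was higher in KO in B7S1R_SP (23.2 against 20.4 FPKM in WT numbered 2) and TIM-3_SP (43 against 39.3 FPKM). Only in DN was Cd28 lower in KO (30 against 63.5 FPKM). Pdcd1, the gene for PD-1, had 3.17 FPKM in KO B7S1R_SP, 17.7 in TIM-3_SP and 12.1 in DN, against 28.5, 83.8 and 137 FPKM in WT numbered 2 in the same order. Every KO value of Pdcd1 was below every WT value, as was the case for 9.99% of the genes fitted. Its log2 fold change was -2.80 ± 0.41 (SE), with an unadjusted p = 0.000328 and a limma adjusted p = 0.236. In the bulk pair it stood the other way, with 121 RPKM in KO and 77.8 RPKM in WT. Ctla4 had a log2 fold change of -1.74 ± 0.47 and Icos of -1.56 ± 0.53 in the sorted comparison, each with a limma adjusted p = 0.367. The 7 T cell markers also summed lower in KO in all 3 populations, at 2010 (B7S1R_SP), 6393 (TIM-3_SP) and 3305 FPKM (DN) in KO, against 2257, 8612 and 5860 FPKM in WT numbered 2. Macrophage markers without Ly6c2, given above, were higher in KO in all 3. Their part in the receptor values was not tested.

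Between wild-type populations 4 of 4 receptors had lower fitted values in B7S1R_SP than in TIM-3_SP (median -0.81, beside 0.16 over all genes) and than in DN (median -1.22, beside -0.03). For TIM-3_SP over DN 3 of 4 were lower, with a median of -0.37 beside -0.17. Pdcd1 was higher in B7S1R_SP than in DN in libraries numbered 1 (353 against 142 FPKM) and lower in those numbered 2 (28.5 against 137 FPKM). Cd28 was higher in B7S1R_SP than in TIM-3_SP in libraries numbered 1 (63.1 against 51.2 FPKM) and lower in those numbered 2 (20.4 against 39.3 FPKM). Ctla4 and Icos were lowest in B7S1R_SP in both sets. The T cell marker sum was lowest in B7S1R_SP in both wild-type sets, at 4358 and 2257 FPKM, while TIM-3_SP had 6652 and 8612 FPKM and DN 7346 and 5860 FPKM, and its part was not tested. In the antibody libraries Pdcd1 had 735 FPKM in combo, 292 in anti_PD1, 510 in anti_B7S1 and 117 in Control, and Ctla4 had 185, 487, 710 and 83.6 FPKM in the same order. Cd28 had 74.1, 90.2, 75.3 and 136 FPKM and Icos 45.5, 178, 102 and 76 FPKM in that order, so that Cd28, unlike Pdcd1 and Ctla4, was highest in Control, and Icos was lowest in combo.

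Ifng, the gene for interferon gamma, was followed as well. Wild-type B7S1R_SP had 67.6 and 40 FPKM, TIM-3_SP 912 and 1692 FPKM and DN 265 and 373 FPKM. These wild-type groups did not overlap. In this way 9.45% of genes were lower in B7S1R_SP than in TIM-3_SP, 17.2% lower in B7S1R_SP than in DN, and 7.99% higher in TIM-3_SP than in DN. The log2 fold change of Ifng for B7S1R_SP over TIM-3_SP was -4.55 ± 0.79 (SE), limma adjusted p = 0.377. Ifng belongs to a list of 11 interferon-gamma pathway genes, of which 10 were fitted. For this pair 3 of them were higher and 7 lower in B7S1R_SP, and none was called. Of 3 other B7-like genes only Vsir, the gene for VISTA, was fitted, with log2 fold changes from -2.20 for B7S1R_SP over DN to -0.45 for KO over WT and none past the threshold.

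Among the 9 sorted libraries Pdcd1lg2 and Cd80 had the most alike patterns of the 4 well-detected ligands (Pearson's r = 0.789 on log2(FPKM + 1)), and the neighbours Cd274 and Pdcd1lg2 had r = 0.237. The libraries share genotype sets and populations and come from tables with different gene lists, so these are descriptions over 9 points. For Cd274 the wild-type libraries numbered 1 (13, 19.7 and 13.2 FPKM) were above all the others, at most 7.07 FPKM. The part of that split in the correlations was not tested. Out of 9851 genes, genes with a pattern close to that of Cd274 included Srebf1 (r = 0.977) and Limk2 (0.974). Pdcd1lg2 was closest to Nrn1 (0.948), Dap (0.946) and Ngfrap1 (0.945), and Cd80 to Tmem230 (0.969), Tuba1a (0.965) and Slc25a24 (0.951). Cd86 was closest to Dek (0.969), Coa4 (0.961) and Fam172a (0.957). Vtcn1, Icosl and Cd276 were too low in these libraries for such a comparison.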

How the data were processed

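The members and gene lists were chosen with earlier results of these data known. The authors deposited RPKM values for the bulk pair and FPKM values for the other libraries, as the units are named in the series' design text. The submitters' processing notes name HISAT2, Bowtie2, RSEM and mm10; versions, annotation and filters are not given in the sources used here. Genes listed once per table were kept. Sorted libraries were fitted with limma 3.58.1 (R 4.3.3) on log2(FPKM + 1) for genes whose mean in the fit reached 1 FPKM, with Benjamini-Hochberg adjustment over all genes fitted and a threshold of 0.05. The 6 wild-type libraries were fitted together, and the KO libraries with the wild-type libraries numbered 2, with population as a term. Unreplicated pairs were compared by ratio, called at 2-fold with at least 5 in the higher library. Deviations of wild-type libraries with the same number correlated at 0.401, 0.193 and 0.269 between populations over 10411 genes, each over 0.1, so the numbers were taken to pair them and a block was tried. Bulk reads were estimated from RPKM times transcript length. The named genes were the 7 ligands, their receptors, other B7-like genes, Ifng, and genes with the most alike patterns. Some items are not reported here. The fits were tested on simulated data. Alternatives were another pseudocount, no filter, rescaling, unlisted genes as 0, other sets of libraries, a block and leaving out each library.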

Additional observations from a re-analysis of the deposited data

Results flagged for a closer look

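Cd274 differed in opposite directions between the pairs of libraries that differ by the B7S1 antibody. On the log2(FPKM + 1) scale it was 2.11 higher in anti_B7S1 than in Control, and the difference was -2.12 for combo minus anti_PD1. With 1 library each, the difference between these differences was not tested.

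Cd86 differed in opposite directions between KO and WT numbered 2 in the populations B7S1R_SP and DN, by 1.67 and by -1.89 on the log2(FPKM + 1) scale. The difference between these KO effects, in a limma fit of all 9 sorted libraries with population, genotype and set terms, was 3.44 ± 1.34 (SE), with an unadjusted p = 0.0288 and an adjusted p = 1. In that fit 0 of 10178 genes were called, and 99 had an unadjusted p under 0.05.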

How the results depend on the processing

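Outside the fits that leave out a library, 179 ligand values kept their direction and their side of the threshold, 6 reversed and 1 (bulk Icosl, with a minimum of 1 RPKM) became called; with a library left out, 94 kept both and 17 reversed. The cause of the reversals was not tested. Many of the values kept could not change direction, so these counts do not measure stability. The minimum does not enter a ratio, and removing the filter leaves a fold change as it was. The replicate block leaves the wild-type fold changes as they were, as does leaving out a library of a population outside the comparison. Cd80 in B7S1R_SP over TIM-3_SP became -1.52 in the fit of KO and wild type numbered 2. It became -0.48 in all 9 libraries with genotype and set terms (an alternative chosen after seeing the data). The set term separates wild type numbered 1 from the rest. Cd274 in B7S1R_SP over DN became 0.03 and 0.01 in these fits. Cd86 in KO over WT became 0.03 with pseudocount 0.1 and 0.14 with all 6 wild-type libraries. Leaving out each library gave, for TIM-3_SP over DN, Cd274 -2.18 to 0.95, Pdcd1lg2 -0.37 to 0.53 and Cd86 -0.22 to 0.78. For B7S1R_SP over TIM-3_SP it gave Cd274 -1.19 to 1.94, Pdcd1lg2 -1.05 to 0.23, Cd80 -0.68 to 1.39 and Icosl -0.26 to 1.08. For B7S1R_SP over DN it gave Cd274 -0.87 to 0.39, Pdcd1lg2 -0.97 to 0.32 and Cd80 -1.91 to 0.17, and for KO over WT Cd86 -0.93 to 0.85. The 17 reversals came from leaving out a wild-type library of B7S1R_SP, TIM-3_SP (numbered 2 only) or DN, or, for KO over WT, either DN library, where the remaining DN library then carries no contrast. With a library left out Cd86 ranged between -4.34 and -3.58 for B7S1R_SP over TIM-3_SP and between -4.18 and -3.18 over DN, but it was -2.49 and -2.02 in the fit of KO and wild type numbered 2, and -3.20 and -2.53 with all 9 libraries.

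Counts of called genes moved more. With the replicate block TIM-3_SP over DN had 2 and B7S1R_SP over TIM-3_SP 7. With all 9 libraries and the set term these were 6 and 42. The fit of KO and wild type numbered 2 gave 92 for B7S1R_SP over TIM-3_SP and 3 over DN. The 4 calls of KO over WT became 0 with pseudocount 0.1, without the filter and with all 6 wild-type libraries. They became 1 with the set term over 9 libraries, and 0 to 18 with a library left out. The block changed no ligand's call. A minimum of 1 RPKM raised the bulk count to 3232 genes. Rescaling moved the median of all genes in KO over WT to -0.28, against -0.157 as deposited, and the share of genes higher in KO to 34.0%, against 40.5%.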
